A study of Mus musculus with 6 samples.

Results

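The heat shock proteins and their co-chaperones were examined in DN3 thymocytes with and without Tcf7. The members are all genes of the count table whose mouse symbol belongs to the Hspa, Hspb, Hspd, Hspe, Hsph, Hsp90, Dnaja, Dnajb or Dnajc families or to the Cct2 to Cct8 subunits, pseudogenes named -ps left out. These rules found 81 of 26332 genes, and 69 of the 81 had enough counts for a test. The study compared thymocytes sorted from 4 wild-type (WT) animals and 2 Tcf7 knock-outs (KO) on the C57BL/6 background. Tcf7 encodes TCF-1, a transcription factor of the T lineage. Each library came from a separate mouse, and all mice were female except WT 4 and KO 1, which were male. The labels used here give no ages and do not say which part of Tcf7 was removed or whether the knock-out was limited to a cell type. DN3 is the stage at which a thymocyte rearranges its T-cell receptor β gene. The sort kept cells with CD25 and without CD44, CD3, TCRβ, CD8, NK1.1 or CD1d tetramer binding.

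Chaperones bind unfolded or partly folded proteins and help them reach or regain their shape. HSP70 proteins work in cycles of ATP hydrolysis that J proteins (the DNAJ families) start and HSP110 proteins reset, HSP90 acts later on kinases and receptors, and the CCT ring folds actin and tubulin. Some of these genes are expressed at all times, whereas others are switched on by the factor HSF1 when cells are stressed. HSF1 binds heat shock elements, which are inverted repeats of the unit GAA. Mitochondria and the endoplasmic reticulum (ER) have chaperones of their own.

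The stress-inducible HSP70 pair Hspa1a and Hspa1b carries the largest fall among the members whose KO level could be counted, so the stretch before each gene is shown first. Sequences are those of RefSeq on build GRCm38.p6, and 66 members matched a RefSeq promoter by gene identifier. Capitals mark matches to GAANNTTC or TTCNNGAA, the head-to-head and tail-to-tail pairs of the unit, each of which reads the same on both strands. Both stretches lie on the minus strand of chromosome 17 and end at the base before the annotated start.
Hspa1a, chr17:34972157-34972406: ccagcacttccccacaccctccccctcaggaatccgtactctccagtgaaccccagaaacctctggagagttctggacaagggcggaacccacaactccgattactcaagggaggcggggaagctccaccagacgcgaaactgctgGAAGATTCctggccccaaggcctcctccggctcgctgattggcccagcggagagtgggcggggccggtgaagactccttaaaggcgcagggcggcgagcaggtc
Hspa1b, chr17:34959239-34959488: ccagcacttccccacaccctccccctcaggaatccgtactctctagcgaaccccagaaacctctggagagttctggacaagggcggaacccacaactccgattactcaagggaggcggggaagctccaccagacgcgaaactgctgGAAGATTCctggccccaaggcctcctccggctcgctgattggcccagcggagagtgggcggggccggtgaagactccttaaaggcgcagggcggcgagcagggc
The 2 stretches shared 247 of 250 bases. Counted from 1 at the 5′ end, with the base of Hspa1a first, they differed by C44T, T47C and T249G. In both, the match began 104 bases before the start.

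Other members with matches near the start are shown in 30 bases around the match: Hsph1 (HSP110) on the minus strand of chromosome 5, inside the annotated span of the gene and before the starts in the promoter table, Hspe1 (mitochondrial HSP10) on the plus strand of chromosome 1 and Dnajb6 on the plus strand of chromosome 5.
Hsph1, chr5:149636351-149636380: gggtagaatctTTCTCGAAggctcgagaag
Hspe1, chr1:55088053-55088082: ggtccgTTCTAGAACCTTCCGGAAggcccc
Dnajb6, chr5:29735843-29735872: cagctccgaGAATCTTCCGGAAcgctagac
Hspd1, the mitochondrial HSP60 gene, is transcribed away from Hspe1, the annotated genes overlap by 96 bases, and the stretch shown for Hspe1 also lies before one of the starts of Hspd1. GAANNTTC occurred in the 250 bases before a start in 13 of 66 members (19.7%) and in 1323 of all 18458 genes with a promoter in the table (7.17%). TTCNNGAA occurred in 7 of 66 (10.6%) and in 1409 genes (7.63%). A run of 3 alternating units, in either order, contains both pairs and was found in 3 members (Dnajb6, Hspd1 and Hspe1) and in 91 genes in all (0.493%). A match describes letters in this window only.

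The libraries held 13673860 to 41666797 counts, so that 3 counts correspond to 0.0720 to 0.219 CPM, the unit of counts scaled to library size. The targeted gene Tcf7 fell by 1.05 on the log2 scale (SE 0.09, edgeR adjusted p = 0.00127), with 2094 to 2326 CPM in WT against 1133 CPM for KO 1 and 1022 CPM for KO 2, so transcripts remained. From a list of 8 DN3 genes, Il2ra, Ptcra, Rag1, Notch1 and Notch3 were present in every library. The summed level of the 8 was 7612 CPM in KO 1 and 7414 CPM in KO 2, against 8826 to 9668 CPM in WT. Their log2 changes ran from -1.17 to 1.81 with a median of -0.61. B-cell transcripts were highest in KO 2: the summed level of 10 B-cell markers was 22.4 CPM in KO 1 and 232 CPM in KO 2, against 43.4 to 51.9 CPM in WT, and Ms4a1 and Pax5 were at 0 in KO 1 and WT. KO 1 had some of them too, with Cd22 at 6.29 CPM and Cd79a at 3.68 CPM against at most 0.0351 and 0.211 CPM in WT. The summed level of 5 double-positive markers was 228 CPM in KO 1 and 1800 CPM in KO 2, against 7.17 to 20.2 CPM in WT, and Cd4 was at 0 in KO 1. By edgeR, 4 of 6 tested B-cell markers and 4 of 5 double-positive markers rose. Of the 8 DN3 genes 4 fell and 1 rose, of 4 gamma-delta markers 2 rose and 1 fell, of 3 tested myeloid markers 1 rose and 1 fell, and of 3 erythroid markers 1 rose. The part of other cells in the results was not tested. KO 1 and KO 2 were farther apart than WT libraries were, for the members as for all genes. The median distance over the 69 tested members was 0.37 on the log2 scale between KO 1 and KO 2 and 0.10 between WT libraries. Over all genes tested it was 0.43 and 0.10. In bulk RNA, fewer cells of a type and less RNA per cell cannot be told apart.

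More members fell than rose in KO cells. By edgeR's quasi-likelihood test with sex in the model (calls at 0.05 after Benjamini-Hochberg adjustment over all 13294 genes tested), 17 of 69 members fell and 3 rose. The falls are 24.6% of the members against 16.5% of all genes, and the rises 4.35% against 14.1%. The median log2 fold change was -0.14 over the members and -0.04 over all genes tested. Both KO libraries lay below all 4 WT libraries for 28 members (40.6%; 28.6% of all genes) and above them for 8 (11.6%; 22.9% of all genes). With limma-voom and a weight per genotype, which lets the KO libraries have a larger spread, 7 members fell (10.1%; 3.86% of all genes). No member rose by that test (7.42% of all genes did), and 2 were higher at an unadjusted p under 0.05. DESeq2 called more genes, 5261 in either direction over the whole table. It kept all 17 falls and all 3 rises of the members. It called 4 members higher in all, and it called further members lower, among them Cct3, Cct4 and Hspd1. By class, the edgeR calls were 4 falls and 1 rise among 7 tested cytosolic inducible genes and 2 falls among 8 constitutive HSP70, HSP110 and HSP90 genes of the cytosol. They were 5 falls among 8 cytosolic DNAJA and DNAJB genes and 2 falls among 15 other DNAJC genes. In the organelles they were 2 falls and 1 rise among 8 mitochondrial genes and 2 falls among 13 ER genes. Of 3 small heat shock genes, 1 rose.

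**Figure D1:**
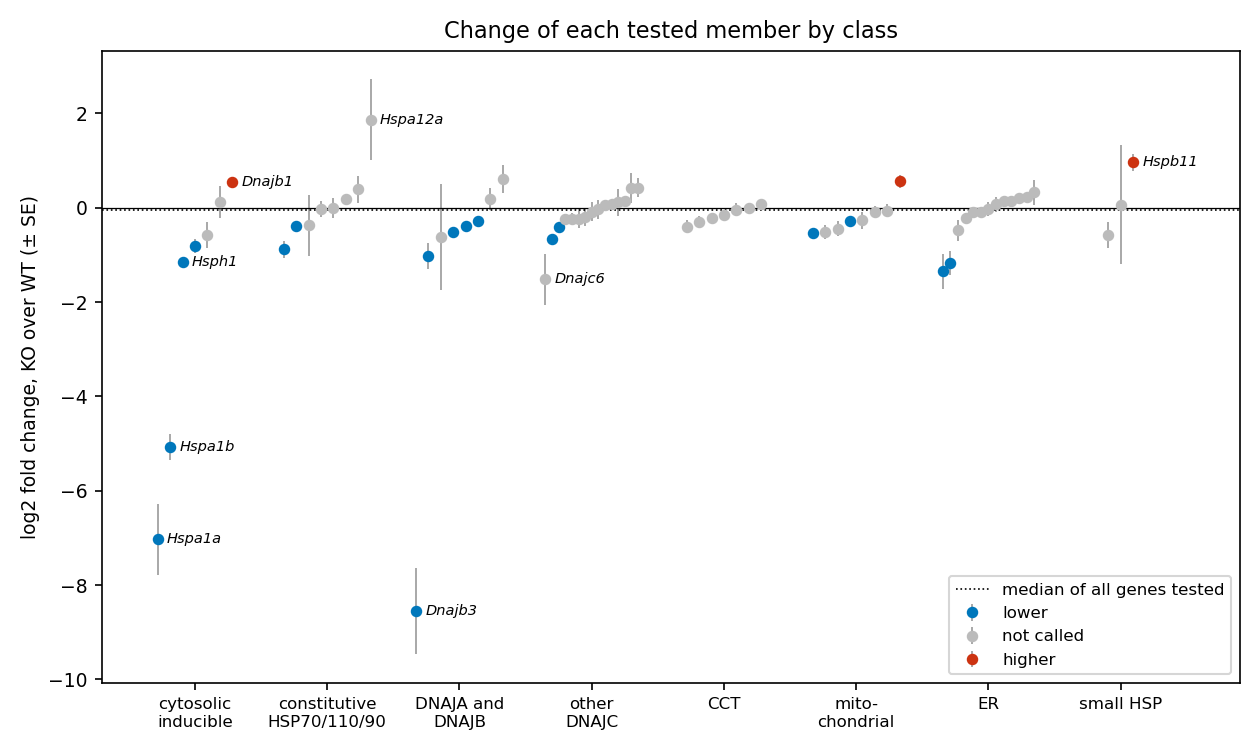
Log2 fold changes by edgeR, KO over WT, with standard errors for the 69 tested members, grouped by class, where blue points fell, red points rose and grey points were not called, and the dotted line is the median of all genes tested. Hspa1a and Hspa1b lie lowest among the members with KO counts. Dnajb3 had no KO count, so its plotted value is not a measure of size.

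Most of these calls were lost when WT 1, WT 2 or WT 3 was left out. Without WT 1, 6 falls and 0 rises remained of the 17 and 3, and without WT 2 or without WT 3 there were 5 falls and 0 rises, while the same fits called 5.94 to 6.43% of all genes lower and 6.67 to 6.81% higher. The other fits rest on a single KO mouse each. Without WT 4 or without KO 1 the comparison is the same, KO 2 against the female WT libraries. Without KO 2 it is KO 1 against WT 4. All take their spread from WT 1 to 3 alone, so a call that held in them is no separate support. Only 5 of the 20 calls held in all 6 fits that left out a single library, those of Hspa1a, Hspa1b, Hsph1, Dnajc7 and Dnajb3. With a weight per genotype 6 of the 17 falls held, those of Hsph1, Dnajc7, Hsp90aa1, Hspa8, Hspa9 and Dnajb9, and 0 of the 3 rises. Hsph1 and Dnajc7 are on both lists. Over all genes, 464 of 2198 falls and 940 of 1878 rises held with a weight per genotype. How many of all calls held in each fit without a single library was not counted.

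Among the stress-inducible genes of the cytosol, the paired HSP70 genes fell to at most 5.01 CPM, HSP110 and the inducible HSP90 fell by smaller steps, and the J protein gene Dnajb1 rose. Hspa1a (Entrez 193740, chromosome 17, 34969359 to 34972156) was at 45.5, 49.4, 36.1 and 164 CPM in WT 1 to 4, whereas KO 1 had 0.307 and KO 2 had 1.19 CPM. Hspa1b (Entrez 15511, chromosome 17, 34956429 to 34959238) was at 64.4, 72.8, 53.0 and 217 CPM in the WT libraries, against 5.01 and 2.54 CPM in KO. The groups did not overlap for either gene, and WT 4 stood above the other WT libraries for both. Hspa1a fell by 7.03 on the log2 scale (SE 0.76, edgeR adjusted p = 0.00309) and Hspa1b by 5.08 (SE 0.27, edgeR adjusted p = 0.000429). Neither passed with a weight per genotype (limma-voom adjusted p = 0.172 and 0.115), and both held in each fit without a single library, at an adjusted p of at most 0.0235 and 0.0215. Leaving out a library moved the log2 change of Hspa1a between -9.06 and -5.17 and that of Hspa1b between -5.45 and -4.62. The genes are near-identical copies and may share or lose reads: per 100 counts of Hspa1b there were 67.9 to 75.8 of Hspa1a in the WT libraries, 6.12 for KO 1 and 47.1 for KO 2. Their summed level was equal to 10.4 to 13.8% of that of the constitutive Hspa8 in WT 1 to 3, 47.0% in WT 4, and 1.72% for KO 1 and 0.631% for KO 2, in CPM.

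**Figure D2:**
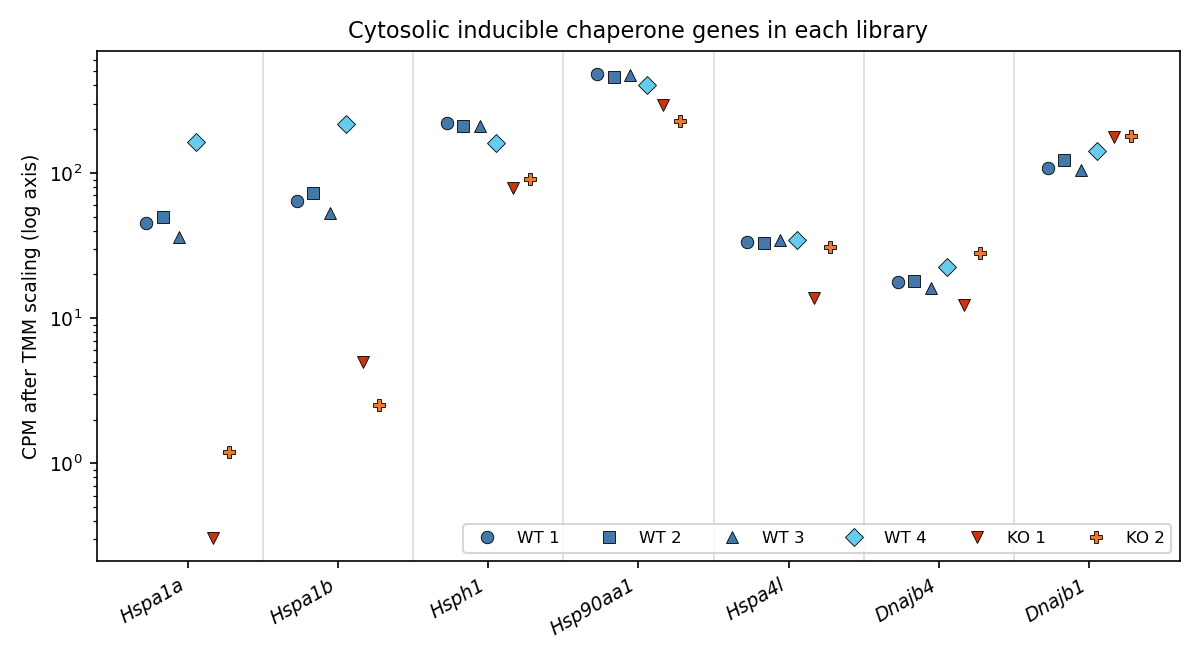
CPM of the 7 tested inducible genes in each library on a log axis, WT in blue and KO in red or orange, 1 point per library. Hspa1a and Hspa1b stand apart by group with WT 4 on top, whereas Dnajb1 is higher in both KO libraries than in any WT library.

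Hsph1 encodes HSP110, which exchanges nucleotide on HSP70. It was at 221, 209, 210.0 and 159 CPM across WT, and KO 1 and KO 2 had 78.5 and 90.5 CPM, without overlap. The fall of 2.22-fold (log2 -1.15, SE 0.08, edgeR adjusted p = 0.00087) was the only member call that held under all 15 other settings, with adjusted p up to 0.0108. Hsp90aa1, the inducible HSP90 of the cytosol, was at 480.1, 461, 475 and 404 CPM in WT mice, compared with 294 and 226 CPM in the KO mice. It fell 1.76-fold (log2 -0.81, SE 0.15, edgeR adjusted p = 0.0151; 0.0564, 0.0588 and 0.0568 without WT 1, 2 or 3). The fall also passed with a weight per genotype (0.00807).

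Dnajb1, the main stress-inducible J protein that works with HSP70, went the other way. It was at 109, 122, 105 and 141 CPM in the WT libraries, against 176 and 180.2 CPM in KO, so both KO libraries lay above WT. The rise of 1.46-fold (log2 0.54, SE 0.11, edgeR adjusted p = 0.0211) did not hold when WT 1, 2 or 3 was left out (adjusted p = 0.0795, 0.0644 and 0.0707) or with a weight per genotype (0.186). Hspa4l, a further HSP110 gene, was at 33.1 to 34.7 CPM in WT, with 13.7 CPM for KO 1 and 31.1 CPM for KO 2, and was not called (adjusted p = 0.165). Dnajb4 was at 16.2 to 22.5 CPM in WT with KO 1 below (12.3) and KO 2 above (28.1) that range. Hspb1, the small heat shock protein HSP27, had at most 3 counts in any library, so its level was not measurable at this depth.

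Values that moved with the inducible genes are given beside them, and their part in the result was not tested. The immediate-early list, which holds Fos, Jun and other genes of rapid response, gave 6 falls and 2 rises among 11 tested of 12 genes. Its summed level was 961 to 1477 CPM in WT, highest in WT 4, and 429 and 773 CPM in KO 1 and KO 2. Jun, a subunit of AP-1, was at 285, 322, 230 and 576 CPM across WT, and KO 1 and KO 2 had 2.92 and 14.0 CPM. The list did not move as a whole: Btg2 and Zfp36, the latter an mRNA-decay factor, rose by edgeR, and Egr1, Btg2 and Nr4a1 were lowest among WT libraries in WT 4. Atf3 was too low for a test. Mitochondrially encoded genes held 2.61 to 2.92% of the counts of each WT library, with 0.893% for KO 1 and 1.78% for KO 2. WT 4 was thus highest both for Hspa1a with Hspa1b and for the immediate-early sum, and both KO libraries were lowest for both. The order of that sum leaned on Jun: with Jun left out of it, KO 2 would no longer lie below WT 3.

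**Figure D3:**
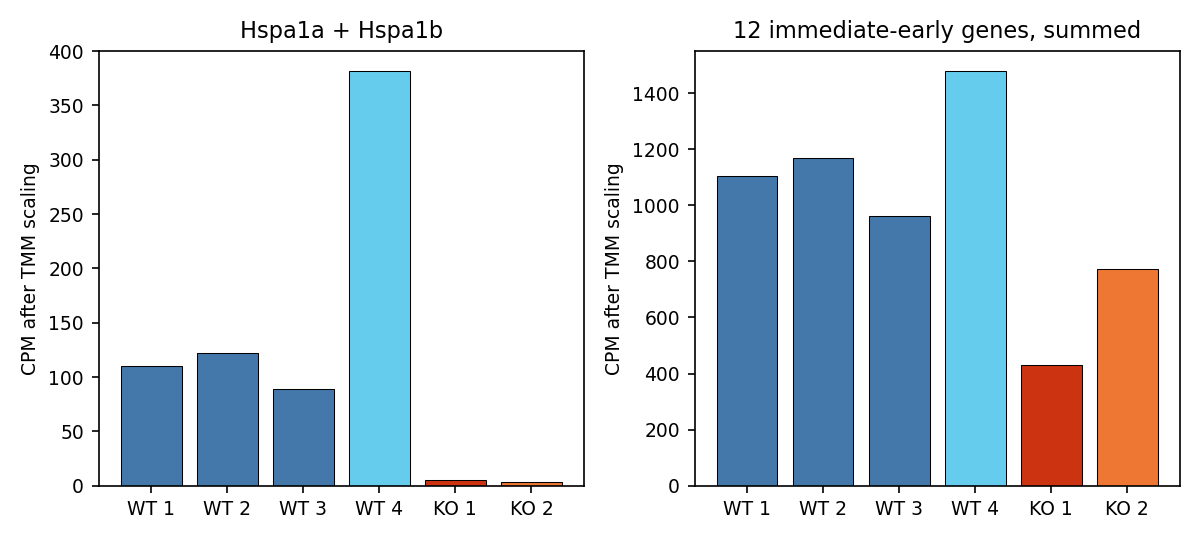
Summed CPM of Hspa1a and Hspa1b (left) and of 12 immediate-early genes (right) in each library, 1 bar per library from 0. WT 4 has the tallest bar in both panels and the KO libraries the shortest, with 381 CPM in WT 4 against 5.32 and 3.73 CPM in KO for the HSP70 pair and 1477 against 429 and 773 CPM for the immediate-early sum.

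The most abundant members were constitutive chaperones of the cytosol, and 2 of the 8 in that class fell. Per kilobase of gene, Hsp90ab1, the constitutive HSP90, led in WT with 1981 CPM per kb, followed by Hspa8 with 409 and Cct5 with 323. Hspa8, which encodes HSC70, the housekeeping HSP70, was at 886, 888, 856 and 811 CPM in WT mice, compared with 309 and 592 CPM in the KO mice. Both KO libraries lay below WT, but KO 1 was far lower than KO 2. Hspa8 fell 1.85-fold (log2 -0.88, SE 0.19, edgeR adjusted p = 0.0225; 0.0765, 0.0699 and 0.0636 without WT 1, 2 or 3; 0.00167 with a weight per genotype). Hspa4, an HSP110 protein, was at 515 to 588 CPM in the WT libraries, against 383 and 439 CPM in KO. Its fall of 1.31-fold (edgeR adjusted p = 0.0103) was lost without WT 1, 2 or 3 (0.0625, 0.0515 and 0.0574) and with a weight per genotype (0.111).

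Hsp90ab1 was at 5056, 5034, 5013 and 4762 CPM in WT, at 6383 CPM in KO 1 and at 3984 CPM in KO 2. The KO libraries thus lay on opposite sides of WT, and no genotype difference was called (log2 -0.02, SE 0.18, adjusted p = 0.929). Hsp90aa1 fell in both, and its part of the 2 cytosolic HSP90 genes, by CPM per kb, was 3.90% for KO 1 and 4.76% for KO 2 against 6.94 to 7.71% in WT. Hspa14, an HSP70 that sits at the ribosome with the J protein Dnajc2, is named after its values were seen. It was at 97.2 to 112 CPM across WT, and KO 1 and KO 2 had 128 and 113 CPM, above WT in both. Hspa14 was not called (edgeR adjusted p = 0.223). Hspa1l, Hspa2, Hspa12a and Hspa12b were at most at 5.12 CPM in any library and were not called.

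Of the J proteins that serve cytosolic HSP70, 5 fell, 4 of them to a level still measured in KO. Dnaja1, a partner of HSC70, was at 102 to 110 CPM in WT mice, compared with 77.8 and 81.0 CPM in the KO mice (1.31-fold lower, edgeR adjusted p = 0.0134). Dnaja2, a second such partner and the most abundant of its class, was at 259 to 273 CPM in the WT libraries, against 198 and 229 CPM in KO (1.22-fold lower, adjusted p = 0.0358). Dnajb6, which holds back protein aggregation and has the 3-unit match shown above, was at 33.5 to 37.2 CPM across WT, and KO 1 and KO 2 had 23.3 and 26.6 CPM (1.42-fold lower, adjusted p = 0.0204). Dnajb2 was at 24.0 to 28.0 CPM in WT, at 21.1 in KO 1 and at 8.88 in KO 2 (adjusted p = 0.043). For these 4 genes the groups did not overlap. All 4 calls were lost without WT 1, 2 or 3 (adjusted p from 0.0564 to 0.137) and with a weight per genotype (0.265 to 0.327). Dnajb3 was at 1.53 to 2.17 CPM in WT and had no count in either KO library. It was at least 20.3-fold lower in KO by 222 pooled WT counts against 3 counts over the KO group (edgeR adjusted p = 0.00523). It lies inside the Ugt1a gene cluster, so its reads cannot be assigned with certainty in a library without strand. Dnaja4, Dnajb5 and Dnajb13 were not called, and Dnajb7 and Dnajb8 had too few counts.

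The other DNAJC genes have varied tasks, from splicing to vesicle coat removal, and 13 of the 15 tested were not called. Dnajc5b, Dnajc5g and Dnajc22 had too few counts. Dnajc7, a co-chaperone that binds both HSP70 and HSP90, was at 323, 317, 312 and 361 CPM in WT mice, compared with 225 and 200.5 CPM in the KO mice. The groups did not overlap, and both KO libraries were low. Dnajc7 fell 1.59-fold (log2 -0.67, SE 0.06, edgeR adjusted p = 0.00174) and held with a weight per genotype (0.00822) and without any single library (at most 0.0206). Dnajc2, which binds nascent chains at the ribosome, was at 140.0 to 147 CPM in the WT libraries, against 99.7 and 115 CPM in KO (1.33-fold lower, edgeR adjusted p = 0.018; 0.076, 0.0706 and 0.0792 without WT 1, 2 or 3). Dnajc6, which encodes auxilin and strips clathrin from vesicles, is named after its values were seen. It was at 143 to 149 CPM in WT, with 16.7 CPM for KO 1 and 91.4 CPM for KO 2. It was not called by edgeR (log2 -1.52, SE 0.54, adjusted p = 0.0874) but was called lower with a weight per genotype (0.0235).

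The CCT ring, which folds newly made actin and tubulin, kept all 7 tested subunits without a call by edgeR with all libraries or with a weight per genotype. At an unadjusted p under 0.05 there were 2 by edgeR and 1 by limma-voom, and DESeq2 called Cct3 and Cct4 lower. Between the subunits log2 changes ran from -0.40 for Cct3 to 0.09 for Cct5. Cct3 was at 556 to 638 CPM across WT, and KO 1 and KO 2 had 533 and 402 CPM. Cct5, the subunit with the highest level per kilobase, was at 520.1 to 597 CPM in WT mice, compared with 627 and 573 CPM in the KO mice. Relative to each gene's WT mean, the 7 subunits stood at 1.01 to 1.07 in WT 1 to 3 and at 0.895 to 0.955 in WT 4. They spread from 0.803 to 1.10 in KO 1 and from 0.661 to 1.00 in KO 2, more widely than in any WT library. Each WT library is part of the WT mean, which draws its values toward 1. The wider spread in KO was not particular to the ring: the median log2 distance between KO 1 and KO 2 was 0.27 over the subunits and 0.43 over all genes tested. The ring's calls depended on the library left out: without KO 1 or without WT 4, fits that compare KO 2 with the female WT libraries, 5 of 7 subunits were called lower, and without KO 2, which compares KO 1 with WT 4, 3 were higher and 2 lower. These fits call many genes: 31.6% of all genes were lower without KO 1 and 33.6% without WT 4, and 37.3% were lower and 31.3% higher without KO 2. Cct6b and Cct8l1 had at most 9 counts in any library. Tcp1 encodes a further subunit of the ring, but its symbol lies outside the member rule, so it is counted with the CCT partners below. Named after its values were seen, Tcp1 was at 580 to 672 CPM in WT, with 546 CPM for KO 1 and 530 CPM for KO 2. It was not called (log2 -0.23, edgeR adjusted p = 0.0772).

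**Figure D4:**
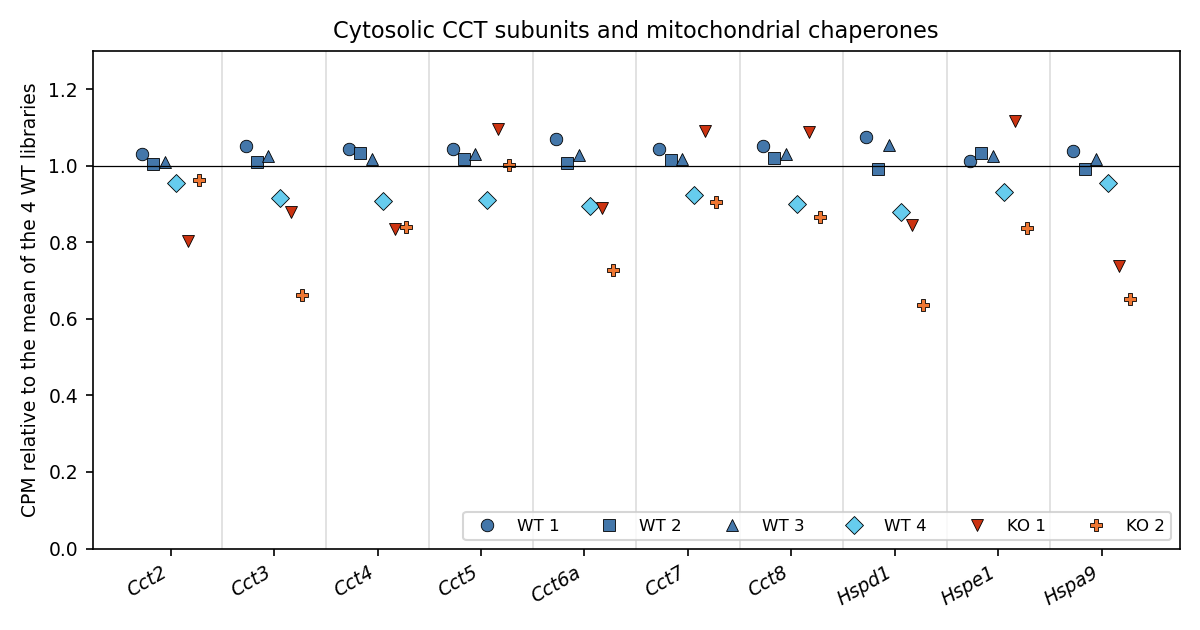
CPM of the 7 tested CCT subunits, Hspd1, Hspe1 and Hspa9 relative to the mean of the 4 WT libraries (line at 1), 1 point per library. WT libraries sit between 0.880 and 1.07, and both KO libraries lie below all WT libraries for Cct3, Cct4, Cct6a, Hspd1 and Hspa9.

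In mitochondria, the import motor HSP70 fell while the HSP60 and HSP10 chaperonin pair was not called by edgeR. Hspa9, which encodes mortalin and pulls proteins through the inner membrane, was at 599, 571, 587 and 551 CPM in the WT libraries, against 426 and 376 CPM in KO, without overlap. It fell 1.44-fold (log2 -0.53, SE 0.09, edgeR adjusted p = 0.00993; 0.0508 and 0.0518 without WT 2 or 3; 0.0407 with a weight per genotype). Hspd1 (HSP60) was at 337 to 411 CPM across WT, and KO 1 and KO 2 had 323 and 243 CPM (log2 -0.44, SE 0.16, edgeR adjusted p = 0.0924). Both KO libraries lay below WT for Hspd1, which was 1.36-fold lower, and DESeq2 called it lower (DESeq2 adjusted p = 0.033). Hspe1, its lid, was at 139 to 154 CPM in WT with KO 1 above (166) and KO 2 below (125) that range (log2 -0.06, adjusted p = 0.762). The ratio of Hspd1 to Hspe1 in CPM per kb was 0.800 to 0.899 in WT and 0.640 and 0.642 in KO 1 and KO 2. Reads from the overlap of the 2 genes cannot be told apart without strand. Dnaja3, the mitochondrial partner of Hspa9, was at 59.8 to 72.5 CPM in WT mice, compared with 52.5 and 56.0 CPM in the KO mice (1.21-fold lower, edgeR adjusted p = 0.0444; 0.144 to 0.149 without WT 1, 2 or 3). Dnajc15, a J protein of the import motor, was at 26.4 to 29.2 CPM in the WT libraries, against 34.2 and 46.2 CPM in KO. Its rise of 1.47-fold (adjusted p = 0.0332) was lost without WT 1, 2 or 3 or without KO 2 (0.109, 0.107, 0.105 and 0.0629). Neither call passed with a weight per genotype (0.526 and 0.32).

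In the ER, the main folding chaperones were not called by edgeR and a pair of J proteins fell. Hspa5, which encodes BiP, the HSP70 of the ER, was at 498, 499.6, 500.0 and 537 CPM in WT, at 404 CPM in KO 1 and at 583 CPM in KO 2. Hsp90b1, the HSP90 of the ER (GRP94), was at 447 to 516 CPM across WT, and KO 1 and KO 2 had 502 and 596 CPM (log2 0.21, SE 0.06, edgeR adjusted p = 0.0501). DESeq2 called Hsp90b1 higher (DESeq2 adjusted p = 0.00137), and limma-voom with a weight per genotype did not (0.431). Dnajb9, a J protein that acts with BiP and is a target of the unfolded protein response, was at 37.2, 43.4, 36.6 and 53.7 CPM in WT mice, compared with 10.5 and 23.4 CPM in the KO mice. It fell 2.54-fold (log2 -1.34, SE 0.37, edgeR adjusted p = 0.046; 0.104, 0.117 and 0.0957 without WT 1, 2 or 3; 0.0415 with a weight per genotype). Dnajb14, a J protein of the ER membrane, was at 9.32 to 10.8 CPM in the WT libraries, against 3.28 and 5.60 CPM in KO (2.26-fold lower, edgeR adjusted p = 0.0223; 0.0679 to 0.0835 without WT 1, 2 or 3; 0.297 with a weight per genotype). Without KO 1 or without WT 4, 6 of 13 ER members were called higher (30.3 and 29.3% of all genes were), and without KO 2 7 were called lower and 1 higher (37.3 and 31.3% of all genes). The other 11 ER members were not called by edgeR in the fit of all libraries, with log2 changes from -0.48 for Dnajc1 to 0.32 for Dnajc3. Dnajc3, which restrains the kinase PERK, is named after its values were seen. It was at 168 to 184 CPM in WT, with 133 CPM for KO 1 and 302 CPM for KO 2.

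Of the small heat shock genes other than Hspb1, only Hspb6, Hspb9 and Hspb11 had enough counts for a test. Hspb11, whose product is a subunit of the intraflagellar transport complex, was at 8.01 to 11.4 CPM across WT, and KO 1 and KO 2 had 11.5 and 25.9 CPM. KO 1 lay just above the WT range. The rise of 1.95-fold (log2 0.96, SE 0.19, edgeR adjusted p = 0.0173) was lost without WT 1, 2 or 3 (0.074, 0.07 and 0.0705) and with a weight per genotype (0.165). Hspb6 and Hspb9 were not called, and Hspb3, Hspb7 and Hspb8 had too few counts. Hspb2, untested and named after its values were seen, had 56 counts in KO 1, 0 in KO 2 and 1 or 2 in each WT library. It overlaps Cryab, so these reads cannot be assigned with certainty.

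The KO libraries often disagreed on a member. KO 1 lay below the WT range for 41 of 69 members and above it for 19, and KO 2 for 38 and 21. The same counts were not made over all genes, so these numbers cannot be read as a trait of the members. For 16 of 69 (23.2%, against 21.6% of all genes tested) the KO libraries lay on opposite sides of the WT range, 8 in each direction. These included Hsp90ab1, Hspe1, Cct7, Cct8 and Dnajc9 with KO 1 above, and Hspa5, Dnajc3 and Dnajb4 with KO 2 above. Of these, Cct7, Cct8 and Dnajc9 are named after their values were seen. A test of the interaction of genotype and sex called 43 members (62.3%, against 54.7% of all genes). That model has a single mouse in 3 of its 4 cells and takes its spread, with 2 residual degrees of freedom, from WT 1 to 3 alone. Sex and the individual mouse therefore cannot be told apart.

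**Figure D5:**
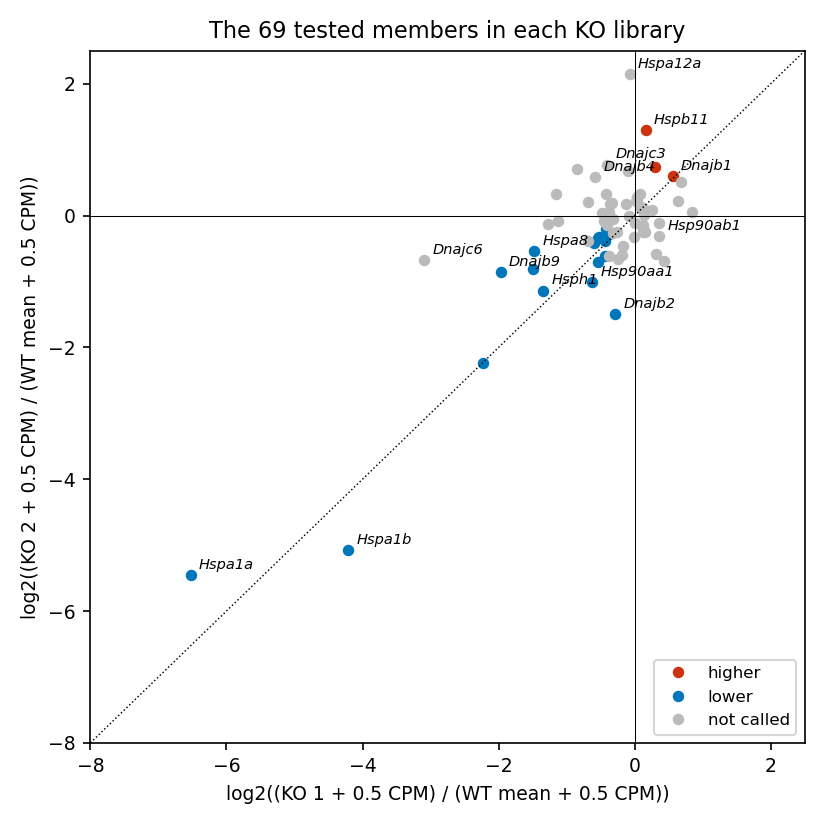
Log2 ratio of each KO library to the WT mean, with 0.5 CPM added to both, for the 69 tested members: KO 1 on the horizontal and KO 2 on the vertical axis, coloured by the edgeR call, with the dotted line of equal change. Hspa1a and Hspa1b are far down in both libraries, Dnajc6 mainly in KO 1 and Dnajb2 mainly in KO 2.

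Genes that work with the members were taken as lists by their known roles, and their counts stand beside the 16.5% of all genes called lower and 14.1% called higher. The HSF list had 1 fall among 8 tested of 10 genes. Hsf1, the master factor of the heat shock response, was at 58.5 to 59.9 CPM in WT, with 59.5 CPM for KO 1 and 31.8 CPM for KO 2 (log2 -0.51, SE 0.21, adjusted p = 0.129). Hsf2 was at 25.4 to 26.6 CPM in WT mice, compared with 15.6 and 21.5 CPM in the KO mice (adjusted p = 0.0659). Hsbp1, which binds HSF1, was the fall (log2 -0.26, edgeR adjusted p = 0.0399), with a weight per genotype 0.506. Among 26 cofactors of HSP70 and HSP90, 7 fell and 19 were not called. Bag2, which regulates the HSP70-linked ubiquitin ligase CHIP, was at 33.5 to 35.9 CPM in the WT libraries, against 11.9 and 15.5 CPM in KO (log2 -1.31, SE 0.11, edgeR adjusted p = 0.00147; 0.0367 with a weight per genotype). Ahsa2, related to the HSP90 activator Ahsa1, was at 24.6 to 26.3 CPM across WT, and KO 1 and KO 2 had 19.1 and 15.3 CPM (adjusted p = 0.0192). Ptges3, the HSP90 cochaperone p23, was at 47.9 to 54.1 CPM in WT mice, compared with 37.1 and 31.4 CPM in the KO mice (adjusted p = 0.0168). Neither Ahsa2 nor Ptges3 passed with a weight per genotype (0.421 and 0.283), and the calls of Hsbp1, Ahsa2 and Ptges3 were lost without WT 1, 2 or 3 (0.063 to 0.146).

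Of 15 genes on the list of CCT partners, which holds the ring subunit Tcp1, the prefoldin subunits and tubulin cofactors, 2 rose and 13 were not called. Pfdn5, a prefoldin subunit, was at 90.6 to 96.5 CPM in the WT libraries, against 138 and 114 CPM in KO (log2 0.40, adjusted p = 0.0175). Tbcb, a tubulin-folding cofactor, was at 28.3 to 32.4 CPM across WT, and KO 1 and KO 2 had 44.4 and 39.3 CPM (log2 0.46, adjusted p = 0.0265). Neither passed with a weight per genotype (0.141 and 0.242) or without WT 1, 2 or 3 (0.0658 to 0.0951). Of 15 mitochondrial quality control genes, 3 fell and 12 were not called. Dnlz, which keeps Hspa9 soluble, was at 60.7 to 66.5 CPM in WT mice, compared with 42.9 and 36.7 CPM in the KO mice (log2 -0.69, adjusted p = 0.00793). Afg3l2, a protease of the inner membrane, was at 94.4 to 98.3 CPM in the WT libraries, against 64.9 and 65.8 CPM in KO (log2 -0.55, adjusted p = 0.00421). Tomm70a, an import receptor that takes proteins from HSP70 and HSP90, was at 293 to 314 CPM across WT, and KO 1 and KO 2 had 204 and 226 CPM (log2 -0.49, adjusted p = 0.00464), the only fall of the 3 that passed with a weight per genotype (0.0452).

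Of 20 ER chaperones and unfolded protein response genes, 4 fell, 2 rose and 14 were not called. The sensors Atf6 and Eif2ak3 (PERK) rose. Atf6 was at 25.9 to 29.8 CPM in WT mice, compared with 80.8 and 67.4 CPM in the KO mice (log2 1.36, SE 0.09, edgeR adjusted p = 0.000608). Eif2ak3 was at 49.0 to 53.1 CPM in the WT libraries, against 80.5 and 146 CPM in KO (log2 1.20, SE 0.18, edgeR adjusted p = 0.00753). Xbp1, the transcription factor made when the sensor IRE1 is active, fell and stood at 52.9 and 116 CPM in KO against 212 to 235 CPM in WT (log2 -1.37, SE 0.24, edgeR adjusted p = 0.0129). All 3 calls passed with a weight per genotype (0.000352, 0.00261 and 0.00063), and that of Xbp1 was lost without WT 1 (0.0526). Ddit3 (CHOP; log2 -0.52, edgeR adjusted p = 0.0448) and Sil1, which exchanges nucleotide on BiP (log2 -0.47, adjusted p = 0.0441), fell as well and did not pass with a weight per genotype (0.57 and 0.594) or without WT 1, 2 or 3 (0.106 to 0.147).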

How the data were processed

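The counts the authors deposited are raw reads by Entrez identifier, and the submitters' processing notes name featureCounts and build mm10. Aligner, versions and strandedness of the counting are not given in the sources used, and the SMART-Seq v4 kit named in the labels' protocols does not mark strand. The 6 single-library tables held the same counts as the table of the series. Gene length is a column the authors deposited with the counts. Symbols came from RefSeq for 25275 of 26332 genes and from GENCODE for 18, and 1039 had none. The members, their classes and all lists were chosen with earlier results of these data known.

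Genes were tested with edgeR 4.0.16 in R 4.3.3 (TMM scaling, filterByExpr with a count minimum of 10 by genotype, a quasi-likelihood F test with sex and genotype, 3 residual degrees of freedom) and Benjamini-Hochberg adjustment over 13294 genes at 0.05. CPM are counts over the TMM-scaled library size of the kept genes. Standard errors (SE) were taken as the absolute log2 change over the square root of F. Alternatives were limma-voom (limma 3.58.1) with a weight per genotype, DESeq2 1.42.0, other scalings and filters, no sex term, a replicate block and leaving out each library. Libraries held 13673860 to 41666797 counts. The floor of 3 counts covers counting error only. The scripts were tested on simulated data. Values are named for all inducible, HSP90 and main mitochondrial members, for the ends of the CCT range, for up to 6 called members in each direction and the highest level per kilobase in each other class, and for up to 3 called genes in each direction of each other list, with Hsf1 and Hsf2. Any other gene is said to be named after its values were seen, is listed without values or as the end of a range, or belongs to the label, marker or motif checks.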

Additional observations from a re-analysis of the deposited data

Results flagged for a closer look

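The 44 named genes with a test were screened for a WT library set apart from the others. For 4 of them, the gap between the male library WT 4 and the nearest of the 3 female WT libraries, over the range of the group, was above Dixon's critical value for 4 samples. Smaller gaps at WT 4, as for Hsph1, Hsp90aa1 and the CCT subunits, did not pass it. By this measure WT 4 was highest for Hspa1a at 164.4 CPM, for Hspa1b at 216.8 CPM and for Hspa5 at 537.2 CPM, and lowest for Hsp90ab1 at 4762 CPM. Chance alone sets about 1 in 20 groups apart in this way.

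The KO effect in the male pair (KO 1 against WT 4) differed from that in the females (KO 2 against WT 1 to 3) by an interaction of genotype and sex in edgeR. Each KO sex is a single mouse, so the interaction describes these mice. The difference, male minus female on the log2 scale, was above 0 among the members for Hsp90aa1 (0.61), Hsph1 (0.22), Hsp90ab1 (0.76), Cct5 (0.31), Hspa9 (0.27), Hspe1 (0.55), Hspd1 (0.65) and Dnajb2 (1.09). It was below 0 for Dnajb1 (-0.37), Dnajb4 (-1.57), Hspa4l (-1.21), Hspa8 (-0.82), Hspb11 (-0.71), Dnajc15 (-0.54), Dnajb9 (-1.61), Dnajb14 (-0.85), Hspa5 (-0.64), Dnaja2 (-0.18) and Dnajc2 (-0.23). Among the genes of the other lists it was 0.36 for Ptges3, 0.32 for Tbcb, 0.21 for Pfdn5, 0.33 for Dnlz, 0.90 for Hsf1, -0.79 for Eif2ak3, -1.03 for Xbp1 and -0.52 for Hsf2. The list of members is not complete: others called include Dnajc6 (-2.42), Dnajc3 (-1.21), Cct3 (0.58) and Cct8 (0.53). The share of members called is given above beside that of all genes.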

How the results depend on the processing

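Against 3 members higher and 17 lower, limma-voom with a weight per genotype called 0 and 7, and the fits without a single library gave 0 to 16 higher and 5 to 34 lower. Over all genes, against 1878 higher and 2198 lower, limma-voom called 987 and 513, and leaving out a library gave 881 to 4321 and 784 to 5152. The lowest counts came without WT 1, 2 or 3. Without WT 4 or KO 1 the sex term takes up the remaining male, and without KO 2 the fit compares KO 1 with WT 4. With the replicate block, 0 members were higher and 4 lower, and 413 and 335 of all genes. Deviations from the group means of libraries with the same number had correlations of -0.11 for number 1 and 0.03 for number 2. With 2 KO libraries, the KO deviations mirror each other, so these values cannot settle whether the numbers pair the mice. Why calls were lost under the block was not tested. DESeq2, the other scalings and filters and the fit without sex kept these counts within 1.5 times. Of 659 values of 44 named genes under the alternatives, 497 kept direction and call, 127 lost the call, 23 gained it and 12 turned direction, all for genes not called. These were Dnajb4 (-0.30 by limma-voom, -0.88 to 0.71 without a library, lowest without KO 2), Hsp90ab1 (0.047 by limma-voom, 0.062 without sex and -0.34 to 0.41 over the fits without a library, 0.0073 without WT 1), Hspe1 (0.00046 by limma-voom, -0.29 to 0.25 without a library, highest without KO 2), Cct5 (-0.040 to 0.26, below 0 without KO 1 or WT 4) and Hspa5 (-0.42 to 0.24, above 0 without KO 1 or WT 4). The cause was not tested. Depth sets a floor of 3 counts (0.0720 to 0.219 CPM), and 12 members were too low for a test.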
